A study of Mus musculus with 8 samples.

Results

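GFP+ endothelium was the endothelial population in which a reporter for the stem cell antigen Sca-1 was active, and it was represented by 2 of the 8 arrays of the series. The other 6 arrays held GFP- endothelium, GFP+ cluster cells and GFP- cluster cells, with 2 arrays each. For each of 19501 genes tested, the lower GFP+ endothelium array was set against the highest of the other 6, and the higher one against the lowest. Genes above or below every other array in this way are described here, and the gap is the log2 distance to the nearest other array.

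All groups came from mouse embryos at stage E10.5 that carried the Tg(Ly6a-GFP) transgene, in which regulatory sequence of Ly6a, the gene for Sca-1, drives green fluorescent protein. The mothers were F1 females of C57BL/6 and 129S1/SVImJ parents, and the transgene came from the fathers. Tissue that the labels abbreviate as A+U+V was pooled from 100 embryos. Both endothelial groups were sorted as CD31+ VEC+ ESAM+ Kit- cells, 70000 with GFP and 300000 without. Both groups of hematopoietic cluster cells were sorted with the same antigens and Kit, 30000 with GFP and 130000 without. The labels give the sex as male, although the cells were pooled from many embryos. The RNA of each group was divided into 2 fractions before amplification, so the 2 arrays of a group are technical replicates. Every p-value therefore measures only the spread between fractions of one RNA, and n counts arrays. No group has a second pool or sort, and the transgene reports the activity of its own regulatory sequence, which need not match that of the endogenous gene in every cell. In bulk RNA such as this, fewer cells of a type and less RNA per cell cannot be told apart.

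At this stage blood stem and progenitor cells arise from endothelium that lines the large arteries, by a change of fate in which flat endothelial cells round up and bud into clusters. Arterial endothelium is set apart from venous endothelium by Notch signalling, in which ligands such as Jag1 on one cell activate receptors on the next and switch on the transcriptional repressors of the Hey family. Arteries are also known for connexin gap junctions, for elastic fibres laid down around the vessel and for genes induced by blood flow.

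The genes that the sort and the reporter rest on were read first. Levels are log2 signals minus the 75th percentile of the array, so 0 is the level of a gene at that percentile. Ly6a read 0.37 and 0.42 in GFP+ endothelium, -3.40 and -3.95 in GFP- endothelium, -0.48 and -0.57 in GFP+ cluster cells, and -3.95 and -3.87 in GFP- cluster cells. Its highest levels were thus in GFP+ endothelium, followed by GFP+ cluster cells, and both GFP- groups overlapped. Kit, the receptor used to separate the classes, read 1.28 and 1.36 in GFP+ endothelium and 1.33 and 1.35 in GFP- endothelium. Both GFP+ cluster cell arrays read 2.87, and GFP- cluster cells read 1.94 and 2.02. Pecam1, which encodes CD31, lay above every other array with a gap of 0.37. Cdh5, which encodes VE-cadherin, differed from the mean of the other 3 groups by 0.05 ± 0.044 (log2 difference ± SE of the limma fit), which did not pass (adjusted p = 0.386, limma with Benjamini-Hochberg adjustment). These genes set the gates, and their levels are a description. The 3 genes that mark the group by earlier results of these data are Tmem100, Htra1 and Gcg. They were all above every other array, but they were picked on these arrays and are no independent evidence of the label.

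Promoter sequence is shown for 4 of the genes that lay above every other array: Htra1 and Gcg, which mark the group, and the arterial genes Gja5 and Hey2. Each line gives the 250 bases before the transcription start of RefSeq on mouse build GRCm38.p6, 5′ to 3′ on the gene's own strand. The array files give probe positions on another build, mm9. Capitals mark matches on either strand to short sets of letters. The RBPJ-type letters, TGGGAA, are the core bound by the DNA-binding partner of Notch. The type bound by erythroid and endothelial GATA factors is AGATAA. For Sox factors ACAATG was searched. For SMADs that act below BMP receptors the letters were GGCGCC.
Htra1, plus strand, chr7:130935953-130936202: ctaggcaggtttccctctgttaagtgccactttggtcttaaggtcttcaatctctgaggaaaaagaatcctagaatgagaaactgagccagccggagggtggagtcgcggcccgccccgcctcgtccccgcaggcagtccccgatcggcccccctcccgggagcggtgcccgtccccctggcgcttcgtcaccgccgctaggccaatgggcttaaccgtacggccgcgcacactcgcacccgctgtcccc
Gja5, plus strand, chr3:97032152-97032401: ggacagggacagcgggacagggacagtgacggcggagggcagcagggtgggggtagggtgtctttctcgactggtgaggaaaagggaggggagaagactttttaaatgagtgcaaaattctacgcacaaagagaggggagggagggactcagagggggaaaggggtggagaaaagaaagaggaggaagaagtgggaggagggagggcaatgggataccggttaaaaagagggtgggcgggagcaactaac
Hey2, minus strand, chr10:30842784-30843033: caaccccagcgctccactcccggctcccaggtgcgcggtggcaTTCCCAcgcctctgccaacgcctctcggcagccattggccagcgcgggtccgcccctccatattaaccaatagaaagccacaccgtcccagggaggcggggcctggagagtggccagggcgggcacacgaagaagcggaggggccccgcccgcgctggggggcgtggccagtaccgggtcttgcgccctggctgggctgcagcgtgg
Gcg, minus strand, chr2:62483654-62483903: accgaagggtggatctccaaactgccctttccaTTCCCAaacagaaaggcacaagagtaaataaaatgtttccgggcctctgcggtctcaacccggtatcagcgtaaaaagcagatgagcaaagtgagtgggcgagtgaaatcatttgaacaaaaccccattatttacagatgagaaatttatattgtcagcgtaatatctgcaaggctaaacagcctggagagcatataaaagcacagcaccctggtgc
The windows of Hey2 and Gcg each held 1 match, to the RBPJ-type letters on the reverse strand. Those of Htra1 and Gja5 held none, which says only that these letters are not in these windows. Among 32851 windows of this length in the table, 21.6% held the RBPJ-type, 9.99% the GATA-type, 10.7% the Sox-type and 9.59% the SMAD-type letters. Of the 68 genes that lay at least 1 log2 unit above every other array, 48 had windows in the table, and their 59 windows held them in 20.3%, 3.39%, 5.08% and 22% of cases. A gene can have several overlapping windows, and a match is a description, not a binding site.

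Across the array, 2876 of the 19501 genes (14.7%) lay above every other array and 5195 (26.6%) below. Most gaps were small, with a median of 0.15 above and 0.17 below. A gap of at least 1 log2 unit, a doubling of signal against the nearest other array, was found for 68 genes above (0.349%) and 233 below (1.19%). Among the 68, the nearest other array belonged to GFP+ cluster cells in 52 cases (76.5%), to GFP- endothelium in 13 and to GFP- cluster cells in 3. The same count gave 6 genes far above in GFP- endothelium, 347 in GFP+ cluster cells and 65 in GFP- cluster cells. Far below every other array were 69, 55 and 4 genes in these groups. With quantile normalization GFP+ endothelium had 3678 genes above and 3743 below, and 88 and 46 by at least 1 log2 unit, so the excess of low genes depends on the scaling. All 68 genes far above stayed above every other array under that normalization, and also in the table the authors deposited. With normexp background correction 29 of them did, and 18 genes were far above and 5 far below. With 2 spots reset before that correction 67 of the 68 stayed above, and the far genes numbered 26 and 9.

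**Figure D1:**
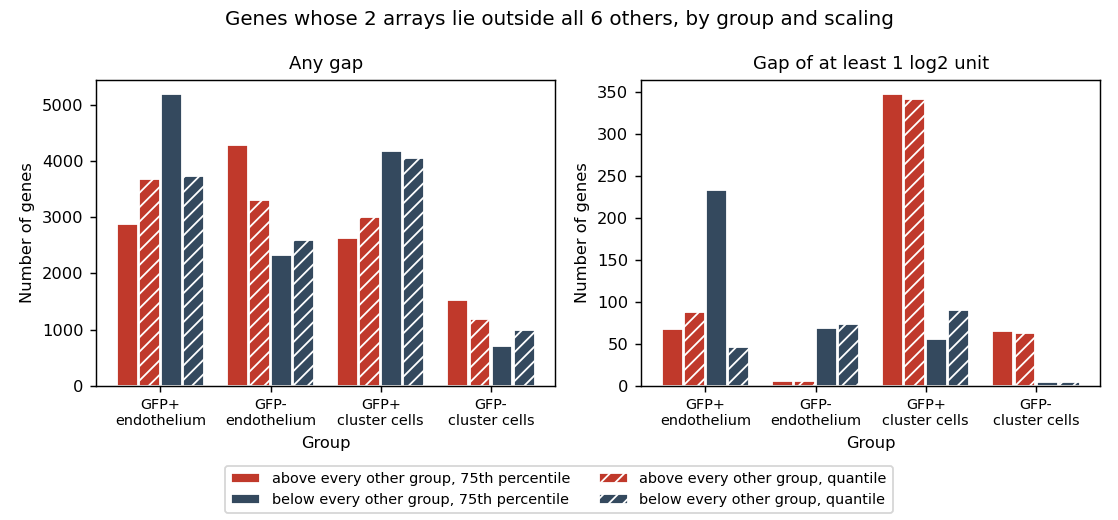
Number of genes whose 2 arrays lie above (red) or below (dark blue) all 6 other arrays, for each group, with scaling to the 75th percentile (solid) and quantile normalization (hatched). GFP+ endothelium had 233 genes at least 1 log2 unit below with the first scaling and 46 with the second, while the genes above numbered 68 and 88.

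In the limma fit over all 8 arrays, 10557 genes (54.1%) differed between GFP+ endothelium and the mean of the other 3 groups at an adjusted p under 0.05, 3813 higher (19.6%) and 6744 lower (34.6%). The share of these calls that were higher was 36.1%, and 49.3% with quantile normalization. The median difference over all genes was -0.10, and -0.016 with quantile normalization, so small differences below 0 are read against that shift. A difference of at least 2-fold was called for 263 genes higher (1.35%) and 1171 lower (6%). Against each of the other 3 groups in turn, 1506 genes (7.72%) were called higher in all of them and 2534 (13%) lower. With technical replicates that correlated at r = 0.995 to 0.998, calls were frequent, and sizes are given beside them. With normexp background correction 144 genes were called in place of 10557. With 2 spots on 1 GFP- endothelium array reset before that correction, 7795 were called.

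The 3 marker genes had separate patterns. Tmem100, which encodes a membrane protein induced in arterial endothelium by BMP receptor signalling (probe on chromosome 11, 89897263 to 89897322), read 0.47 and 0.41 in GFP+ endothelium. It read -2.15 on both GFP- endothelium arrays, -1.66 and -1.71 in GFP+ cluster cells, and -3.37 and -3.42 in GFP- cluster cells. Its gap of 2.07 was the largest among genes with a symbol in the RefSeq gene table that were well above background on both sides of the gap and called against each other group, and its difference from the mean of the other groups was 2.85 ± 0.039 (SE; adjusted p = 1.44e-05, limma).

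Htra1 encodes a secreted serine protease that cuts matrix proteins and restrains TGF-beta signalling (chromosome 7, 138129081 to 138129140). It read 2.42 and 2.46 in GFP+ endothelium, -0.46 and -0.47 in GFP- endothelium, 0.53 and 0.55 in GFP+ cluster cells, and -1.47 and -1.37 in GFP- cluster cells. The order of the groups was the same as for Tmem100, with GFP+ cluster cells second, and the difference was 2.88 ± 0.041 (adjusted p = 1.44e-05, limma).

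Gcg encodes proglucagon, the precursor of glucagon and glucagon-like peptides (chromosome 2, 62312685 to 62312744). It read -1.15 and -1.19 in GFP+ endothelium, -1.66 and -1.61 in GFP- cluster cells, -4.22 and -4.10 in GFP- endothelium, and -6.08 and -5.86 in GFP+ cluster cells. Here the nearest group was the GFP- cluster cells, at a gap of 0.43, while the probe was not well above background on either GFP+ cluster cell array, which makes the level in GFP+ endothelium at least 11.5-fold higher than there. Of 15 measured genes of endocrine cells, 4 lay above every other array (14.7% of all genes did) and 3 below (26.6%). Besides Gcg, the 4 include Isl1, a transcription factor of endocrine and other cells, with a gap of 0.38, and the endocrine genes Pax6, Pdx1 and Neurod1 were among those not well above background on both arrays of any group.

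Arterial and Notch genes stood mostly on the high side. Of 30 measured, 17 lay above every other array (14.7% of all genes did) and 1 below (26.6%). Of the 30, 14 were called higher than each of the other groups (7.72% of all genes). The median difference of the 30 from the mean of the other groups was 0.49, beside -0.10 over all genes. It was 0.32 against GFP- endothelium alone, with 16 called higher (18.2% of all genes) and 8 lower (33.4%). Gja5, the arterial connexin of the gap junctions between endothelial cells (chromosome 3, 96857349 to 96857408), read 4.15 and 4.19 in GFP+ endothelium. It read 1.93 and 2.06 in GFP- endothelium, 2.59 and 2.55 in GFP+ cluster cells, and 0.56 and 0.55 in GFP- cluster cells. The difference was 2.47 ± 0.047 (adjusted p = 1.64e-05, limma), and a second probe gave 0.76. Hey2, a repressor that Notch switches on, read -2.67 and -2.85 in GFP+ endothelium, -4.78 and -4.61 in GFP- endothelium, and -4.76 and -4.35 in GFP+ cluster cells. In GFP- cluster cells it was not well above background, and GFP+ endothelium was at least 5.45-fold higher. The ligand gene Jag1 (gap 1.08), a second connexin gene, Gja4 (1.16), the secreted guidance cue Sema3g (1.07) and the kinase gene Bmx (0.95) followed in this list. For Sema3g the other measured probe had a gap of 0.13 and a difference of 1.02. The transcription factor genes Gata6 and Epas1 had gaps of 0.90 and 0.85. The receptor gene Notch1, named after its values were seen as the 1 below, had a difference of -0.36, and its other measured probe gave 0.82. Among 13 genes of veins and lymphatics, 3 lay above (14.7% of all genes) and 1 below (26.6%). Nr2f2, a regulator of venous identity, lay above by 0.19. The venous list had a median difference of 0.13, and of -0.18 against GFP- endothelium alone. In that comparison 5 of the 13 were called higher (18.2% of all genes) and 7 lower (33.4%).

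**Figure D2:**
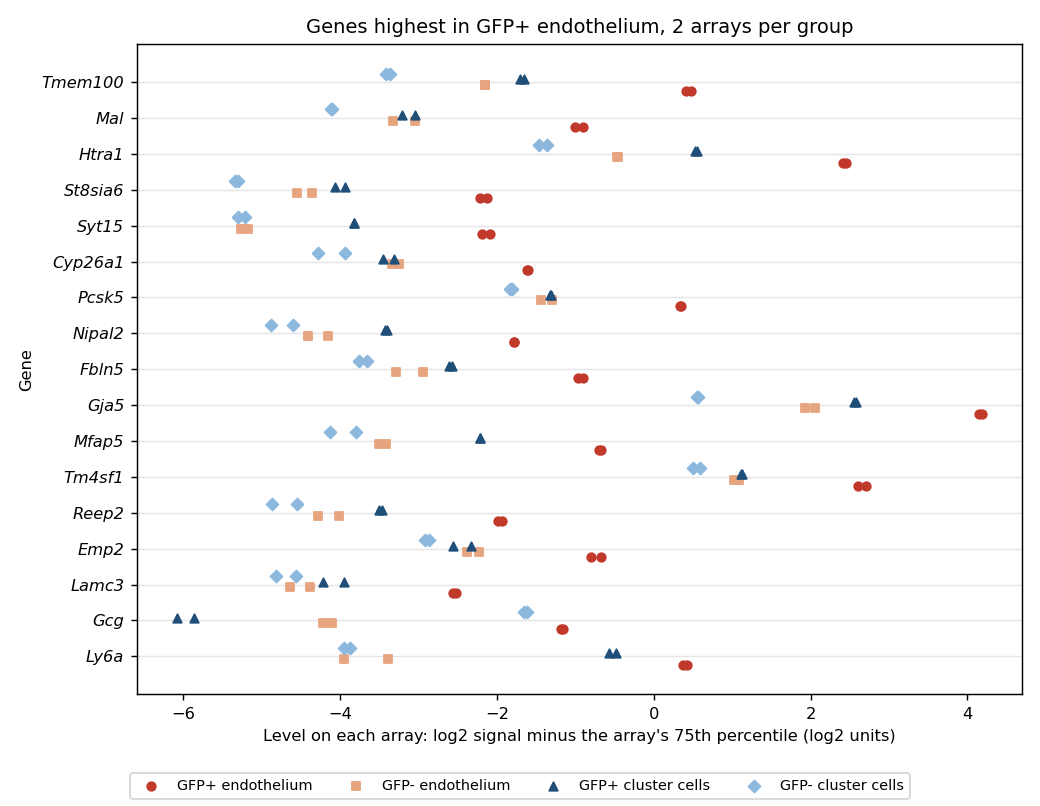
Level on each of the 8 arrays, as log2 signal minus the array's 75th percentile, for the 15 genes with the largest measured gap above every other array and for Gcg and Ly6a; each point is 1 array. The GFP+ endothelium points lie to the right of all others in each line, from a gap of 2.07 for Tmem100 to 0.43 for Gcg.

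Genes shared by all endothelium were also placed high, with smaller gaps. Of 32, 15 lay above every other array (14.7% of all genes) and 1 below (26.6%), and the median difference was 0.33. Against GFP- endothelium alone the median was 0.08, beside -0.13 over all genes. In that comparison 12 were called higher (18.2% of all genes) and 9 lower (33.4%). The list's summed signal overlapped between the endothelial groups, at 790 and 848 in GFP+ endothelium and 816 and 844 in GFP- endothelium. It was 592 and 583 in GFP+ cluster cells, and 706 and 714 in GFP- cluster cells. Tek, the angiopoietin receptor, had a gap of 0.92, Clec14a 0.73, the vascular phosphatase gene Ptprb 0.50 and Nos3, the endothelial nitric oxide synthase, 0.46. The gene below was Erg, an endothelial transcription factor, with a difference of -0.82 ± 0.066 (adjusted p = 0.000516, limma). With quantile normalization 23 of the 32 lay above, against 3678 of 19501 genes.

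Among 22 genes of hemostasis and vessel tone, 11 lay above (14.7% of all genes) and 0 below (26.6%). Their median difference was 0.43, and 10 of the 22 were called higher than each other group (7.72% of all genes). Vwf, which encodes von Willebrand factor, the adhesive protein that endothelium stores and releases for platelets, read 5.63 and 5.76 in GFP+ endothelium. It read 3.37 and 3.49 in GFP- endothelium, 4.31 and 4.57 in GFP+ cluster cells, and 3.08 on both GFP- cluster cell arrays. The vasoconstrictor gene Edn1 had a gap of 0.85, the anticoagulant receptor gene Thbd 0.72, and Entpd1, whose ectoenzyme degrades extracellular ATP, 0.62. Ptgis, the prostacyclin synthase, had a gap of 0.50. Of 16 genes that respond to flow, 9 lay above (14.7% of all genes) and 0 below (26.6%). The transcription factor gene Klf4 led them with a gap of 0.74, and the prostaglandin transporter gene Slco2a1 had one of 0.49.

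Genes of the elastic fibre made up several of the largest gaps. Of 20 measured, 11 lay above every other array (14.7% of all genes) and 0 below (26.6%). Of the 20, 9 were called higher than each other group (7.72% of all genes), and the median difference was 0.34. Fbln5, a fibulin that binds elastin to cells (chromosome 12, 102988153 to 102988212), read -0.90 and -0.97 in GFP+ endothelium, -2.95 and -3.29 in GFP- endothelium, -2.62 and -2.57 in GFP+ cluster cells, and -3.66 and -3.77 in GFP- cluster cells. Mfap5, a microfibril glycoprotein, read -0.68 and -0.70 in GFP+ endothelium, and the next group was GFP+ cluster cells at -2.22 and -2.21. Both GFP- groups were lower still for Mfap5, at -3.51 and -3.41 in endothelium and -4.13 and -3.80 in cluster cells. Ltbp4, which holds latent TGF-beta in the matrix, had a gap of 1.33 and a difference of 2.07, and its second probe gave 2.14. Fbln2 and the fibrillin gene Fbn1 had gaps of 1.25 and 1.23, and Efemp1, a further fibulin, 0.88. The cross-linking enzyme genes Lox and Loxl4 were not well above background on both arrays of any group.

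Basement membrane genes were placed alike, 12 of 19 above (14.7% of all genes) and 0 below (26.6%), with a median difference of 0.44. Against GFP- endothelium alone the median was 0.21, with 9 called higher (18.2% of all genes) and 4 lower (33.4%). Their summed signal was 390 and 389 in GFP+ endothelium and 400 and 395 in GFP- endothelium. It was 259 on both GFP+ cluster cell arrays and 329 on both GFP- cluster cell arrays. The laminin chain gene Lamc3 had a gap of 1.40, and Lamb2 and Lama3 gaps of 0.72 and 0.71. Agrn, a heparan sulfate proteoglycan, and Col4a1, the main collagen of the layer, had gaps of 0.52 and 0.45. Of 27 matrix proteases and their inhibitors, 10 lay above (14.7% of all genes) and 1 below (26.6%). Their median difference was 0.25, and -0.04 against GFP- endothelium alone. After Htra1, the gelatinase gene Mmp2 had the largest gap (0.68), and the gene below was Htra3, a relative of Htra1, with a difference of -0.73 ± 0.13 (adjusted p = 0.00619, limma).

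In the BMP and TGF-beta pathway 15 of 34 genes lay above every other array (14.7% of all genes) and 2 below (26.6%). Of the 34, 10 were called higher than each other group (7.72% of all genes). Their median difference was 0.07 against GFP- endothelium alone, with 12 called higher (18.2% of all genes) and 7 lower (33.4%). Among the ligands, Bmp6 read -1.78 and -1.94 in GFP+ endothelium, -3.59 and -3.81 in GFP- endothelium, -2.84 and -2.78 in GFP+ cluster cells, and -2.90 and -3.23 in GFP- cluster cells. Bmper, a secreted BMP-binding protein, had a gap of 0.76, and Smad7, an inhibitor that the pathway itself induces, 0.48. Tgfbr3, a co-receptor, had a gap of 0.31. The genes below were the secreted BMP antagonists Nog and Chrd. Nog read -3.87 and -4.77 in GFP+ endothelium and between -2.24 and -3.17 on the other arrays, a difference of -1.61 ± 0.29 (adjusted p = 0.00667, limma). Chrd, named after its values were seen, had a difference of -0.45, which did not pass (adjusted p = 0.101, limma). Of the 2, only Nog passed the test.

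Of 35 measured peptide hormones, vasoactive peptides and their receptors, 12 lay above every other array (14.7% of all genes), Gcg among them. Of the 35, 4 lay below (26.6% of all genes). With quantile normalization 1 lay below, and with normexp and 2 spots reset 8 of the 35 lay above, in place of 12. Pnoc, the precursor of the opioid-like peptide nociceptin, read -1.74 and -1.78 in GFP+ endothelium and -3.24 and -3.00 in GFP+ cluster cells. It was at least 7.41-fold higher than in GFP- endothelium and at least 8.59-fold higher than in GFP- cluster cells, where it was not well above background. Ednrb, an endothelin receptor, had a gap of 1.17, and the secreted cytokine-like gene Cytl1 one of 1.02. Npr3, which clears natriuretic peptides, had a gap of 0.98, and Dpp4, a protease that inactivates glucagon-like peptides, one of 0.37. Endothelin 1 and its receptor Ednrb, ligand and receptor of one system, were both above every other array. Edn2, a further endothelin gene named after its values were seen, lay below every other array by 1.06. It read -6.26 and -5.98 in GFP+ endothelium, under the lowest signal well above background on those arrays (-6.18 and -5.04).

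Several genes with large gaps belong to no list. Mal, a proteolipid of membrane traffic (chromosome 2, 127458976 to 127459035), read -1.0 and -0.91 in GFP+ endothelium and between -3.04 and -4.11 on the other arrays, a gap of 2.04. Cyp26a1, which degrades retinoic acid, read -1.62 and -1.60 against -3.26 to -4.28, a gap of 1.63. The proprotein convertase gene Pcsk5 read 0.34 and 0.35 against -1.30 to -1.83, and Tm4sf1, a membrane protein of endothelial cells, 2.61 and 2.70 against 0.51 to 1.13. St8sia6, a sialyltransferase, Syt15, Nipal2, Reep2 and Emp2 had gaps of 1.72, 1.63, 1.61, 1.48 and 1.43. In each of these, both arrays of GFP+ endothelium lay above all 6 others by more than the widest distance between its own 2 arrays. The other measured probe of Emp2 had a gap of only 0.034 and a difference of 0.51.

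Some genes were well above background in GFP+ endothelium alone, and there were 10 of these with a symbol that were also called against each group. The smallest of the 3 bounds is given. Spaca3 was at least 3.09-fold higher than in any other group, Nxnl2 at least 2.59-fold, the potassium channel gene Kcnh1 at least 1.99-fold and the arylsulfatase gene Arsj at least 1.73-fold. Kcnh1 read -4.45 and -2.94 on the 2 arrays, so its bound rests mainly on 1 of them. Pde3a, which degrades cyclic nucleotides, read -2.76 and -2.90 in GFP+ endothelium and was at least 5.88-fold higher than in GFP- endothelium, and its other measured probe gave a difference of 1.27. Of 25 genes of cyclic nucleotide signalling, 8 lay above (14.7% of all genes) and 4 below (26.6%).

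Among guidance cues and their receptors, 10 of 33 lay above (14.7% of all genes) and 0 below (26.6%). The list's median difference was -0.007 against GFP- endothelium alone, beside -0.13 over all genes. There 11 were called higher (18.2% of all genes) and 8 lower (33.4%). The summed signals overlapped, at 245 and 270 in GFP+ endothelium and 267 and 272 in GFP- endothelium. Slit3 (gap 0.69) and Plxna4 (0.55) came after Sema3g. Efnb2, an arterial ephrin, had a gap of 0.39 by its brightest probe, but its other probe gave a difference of -0.20. Of 27 Wnt pathway genes, 6 lay above (14.7% of all genes) and 2 below (26.6%). The ligand gene Wnt11 had a gap of 0.98 and the receptor gene Fzd6 one of 0.80, while Lrp6, a co-receptor, lay below by 0.48.

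**Figure D3:**
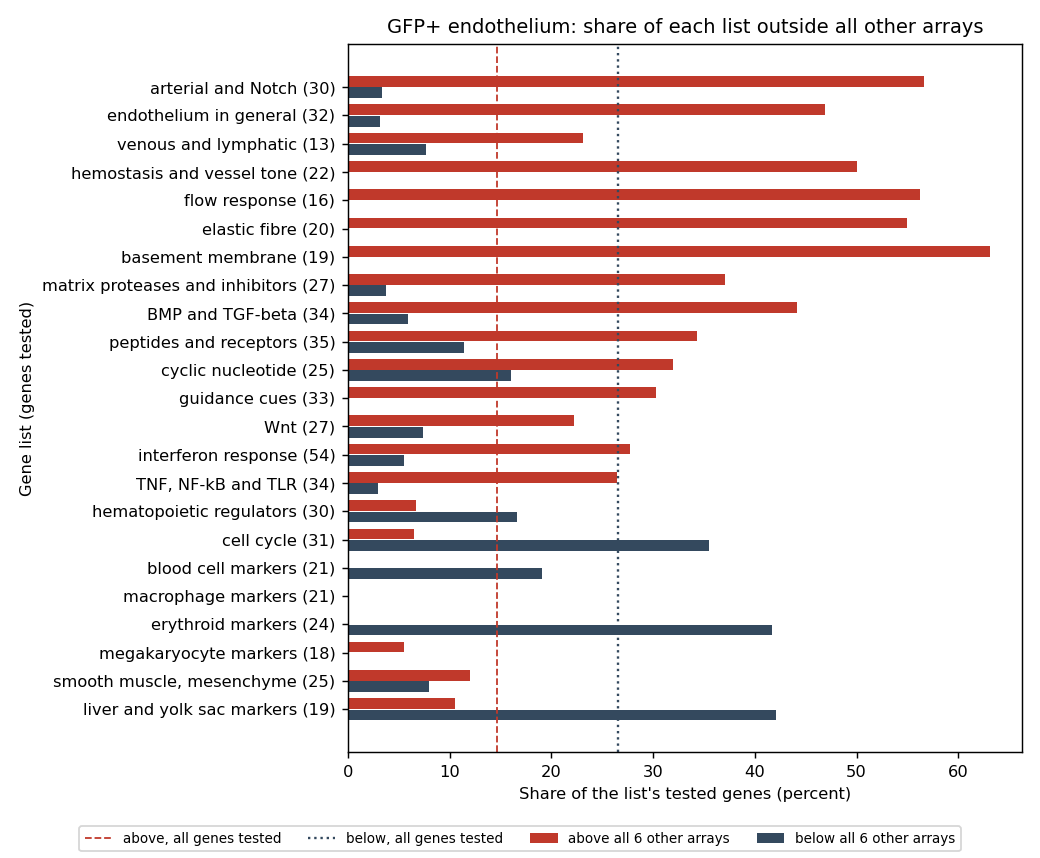
Share of each list's tested genes that lie above (red) or below (dark blue) all 6 other arrays in GFP+ endothelium, in percent, with the number tested in brackets; the lines give the shares over all 19501 genes, 14.7% (dashed) and 26.6% (dotted). Lists of vessel wall and matrix exceed the dashed line. So do the venous, BMP, peptide, cyclic nucleotide, guidance, Wnt, interferon and TNF lists. Among genes with a current symbol, 2478 of 13907 lie above every other array. In the middle 2 of 4 equal bins of genes by level, 17.4% and 22.3% do. The venous (3 of 13) and Wnt (6 of 27) lists stand near such shares. No macrophage marker lies outside the other arrays.

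The series was set up around inflammatory signalling, so those genes were read too. Of 54 interferon-response genes, 15 lay above every other array (14.7% of all genes) and 3 below (26.6%). Of the 54, 10 were called higher than each other group (7.72% of all genes). Gbp4, a guanylate-binding protein, read -1.05 and -0.99 in GFP+ endothelium, -1.60 and -1.71 in GFP+ cluster cells, -2.51 and -2.59 in GFP- cluster cells, and -2.79 and -2.89 in GFP- endothelium. Xaf1, Oasl2, Isg15 and the class I antigen gene H2-D1 had gaps of 0.52, 0.44, 0.37 and 0.35. The nearest group in these was GFP+ cluster cells, as for Gbp4. Ifi44 read -3.99 and -4.16 in GFP+ endothelium and -4.57 and -4.47 in GFP+ cluster cells, and was at least 2.48-fold higher than in GFP- endothelium. The 3 below, named after their values were seen, were Rnf213, Zbp1 and Lgals3bp, whose gaps were 0.045 or less, and with quantile normalization none of the list lay below.

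For this list the position of GFP+ endothelium depended on the comparison. Its median difference was 0.67 against GFP- endothelium, 0.36 against GFP- cluster cells and -0.22 against GFP+ cluster cells. In the same order, 45 (18.2% of all genes), 33 (15.7%) and 11 (24.3%) of the 54 were called higher by limma. Called lower were 1 (33.4% of all genes), 4 (31.4%) and 23 (26.1%). The list for TNF and NF-kB signalling also holds Toll-like receptors. Of its 34 genes, 9 lay above (14.7% of all genes) and 1 below (26.6%). Il1r1, the receptor for interleukin 1, read -1.47 and -1.18 in GFP+ endothelium and between -2.10 and -2.77 on the other arrays. The adhesion molecule gene Icam1 had a gap of 0.45. Macrophage markers had a median difference of 1.22 against GFP- endothelium, 0.03 against GFP- cluster cells and -1.76 against GFP+ cluster cells. Unlike the interferon list, few differed from GFP- cluster cells, with 3 called higher (15.7% of all genes) and 2 lower (31.4%). The part of macrophage markers in these results was not tested. Of 21, 20 were called higher than in GFP- endothelium (18.2% of all genes) and 20 lower than in GFP+ cluster cells (26.1%), and none lay outside the other arrays in either direction. Their summed signal, in units of the array's 75th percentile, was 15.4 and 16 in GFP+ endothelium, 7.46 and 7.49 in GFP- endothelium, 42.9 and 43.9 in GFP+ cluster cells, and 15.1 and 15.7 in GFP- cluster cells. All of the list but Cybb and Cd163, which were not tested, was above background on at least 1 GFP+ endothelium array.

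On the low side, Car2 had the largest gap under the same conditions, which leave out Rn18s, the 18S ribosomal RNA, because its name is not in that table (gap 2.04, named after its values were seen). It encodes a carbonic anhydrase that is abundant in red cells (chromosome 3, 14900206 to 14900265), and read 0.24 and 0.20 in GFP+ endothelium. It read 1.67 and 1.68 in GFP- endothelium, 1.90 and 1.82 in GFP+ cluster cells, and 2.67 and 2.65 in GFP- cluster cells, a difference of -1.85 ± 0.039 (adjusted p = 1.84e-05, limma). Gata1, the erythroid and megakaryocyte transcription factor (chromosome X, 7536392 to 7536451), read -1.58 and -1.68 in GFP+ endothelium, -0.08 and -0.13 in GFP- endothelium, -0.54 and -0.58 in GFP+ cluster cells, and 1.04 and 1.1 in GFP- cluster cells. Tfr2, a transferrin receptor of the liver and erythroid cells, had a gap of 1.21, with GFP- cluster cells highest at -0.83 and -0.82.

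Of 24 erythroid markers, 10 lay below every other array (26.6% of all genes did) and 0 above, with a median difference of -1.82. The other groups differed among themselves. The list's summed signal was 167 and 174 in GFP+ endothelium, 155 and 156 in GFP+ cluster cells, 755 and 779 in GFP- endothelium, and 1170 and 1153 in GFP- cluster cells. GFP+ endothelium was thus near GFP+ cluster cells in sum and above them. Slc4a1, which exchanges chloride for bicarbonate in red cells, was nevertheless below every other array, at -0.85 and -0.83 against -0.19 and -0.18 in GFP+ cluster cells, as were Kel (gap 0.62) and Epor, the erythropoietin receptor (0.26). The erythroid sum was lower in each GFP+ group than in both GFP- groups, and its part in the low genes was not tested.

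H1f5, a linker histone, read 2.19 and 2.24 in GFP+ endothelium, 4.16 and 4.0 in GFP- endothelium, 3.52 and 3.38 in GFP+ cluster cells, and 3.57 and 3.45 in GFP- cluster cells. The histone methyltransferase gene Suv39h1, whose product marks heterochromatin, read -0.19 and -0.27 against 0.87 to 1.16 on the other arrays. H1f6, a linker histone of the testis, had a gap of 1.01, and of 0.44 with quantile normalization. Of 31 cell cycle genes, 11 lay below every other array (26.6% of all genes) and 2 above (14.7%). Their gaps were at most 0.17 below and 0.11 above. Of the 31, 3 were called lower than each other group (13% of all genes). With quantile normalization 7 lay below, against 3743 of 19501 genes. Ccne1, a cyclin of the entry into S phase, and Mcm7, a subunit of the replicative helicase, both had gaps of 0.17, and with quantile normalization Mcm7 no longer lay below.

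The hematopoietic regulators had 2 of 30 genes above (14.7% of all genes) and 5 below (26.6% of all genes), with a median difference of -0.36. The direction depended on the comparison. Against GFP- endothelium 16 were called higher (18.2% of all genes) and 5 lower (33.4%), with a median difference of 0.21. Against GFP+ cluster cells 4 were called higher (24.3% of all genes) and 22 lower (26.1%). Gfi1b, a repressor that acts in the change from endothelium to blood and in red cell and platelet precursors, read -2.25 and -2.43 in GFP+ endothelium, -1.31 and -1.34 in GFP- endothelium, 1.06 and 0.98 in GFP+ cluster cells, and 0.32 on both GFP- cluster cell arrays. Hoxa7 had a gap of 0.62 and Etv2, which acts in early endothelial and blood precursors, one of 0.36, both below, and with quantile normalization the gap of Etv2 was 0.048. Prdm16, a regulator of stem cell maintenance, read -1.49 and -1.64 in GFP+ endothelium and between -2.10 and -3.19 on the other arrays. Runx1, named after its values were seen, lay in between: -2.64 on both GFP+ endothelium arrays, -3.42 and -3.64 in GFP- endothelium, -1.25 and -1.34 in GFP- cluster cells and 0.74 and 0.60 in GFP+ cluster cells. Of 21 general blood cell markers 4 lay below (26.6% of all genes) and 0 above. Of these markers 20 were called lower than in GFP+ cluster cells (26.1% of all genes). Against GFP- endothelium 9 of them were called higher (18.2% of all genes) and 5 lower (33.4%), with a median difference of 0.14.

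Further genes far below had no common role. The protease inhibitor gene Spint2 read -3.26 and -3.54 in GFP+ endothelium and between -0.57 and -2.0 elsewhere, but its other probe gave a difference of 0.04. Cyp17a1, an enzyme of steroid hormone synthesis, read -1.47 and -1.75 against -0.46 to 0.74. Mdh1b, Ltb4r2, Fbxw13 and Arl9 had gaps of 1.32, 1.18, 1.14 and 1.09, at levels of -3.85 or less in GFP+ endothelium. Genes not well above background on either GFP+ endothelium array included Fgf14, at least 3.24-fold lower than in any other group, Nrg4 (at least 2.81-fold), the olfactory receptor gene Olfr1348 (at least 2.78-fold) and Gpr139 (at least 2.63-fold). There were 21 of these with a symbol.

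**Figure D4:**
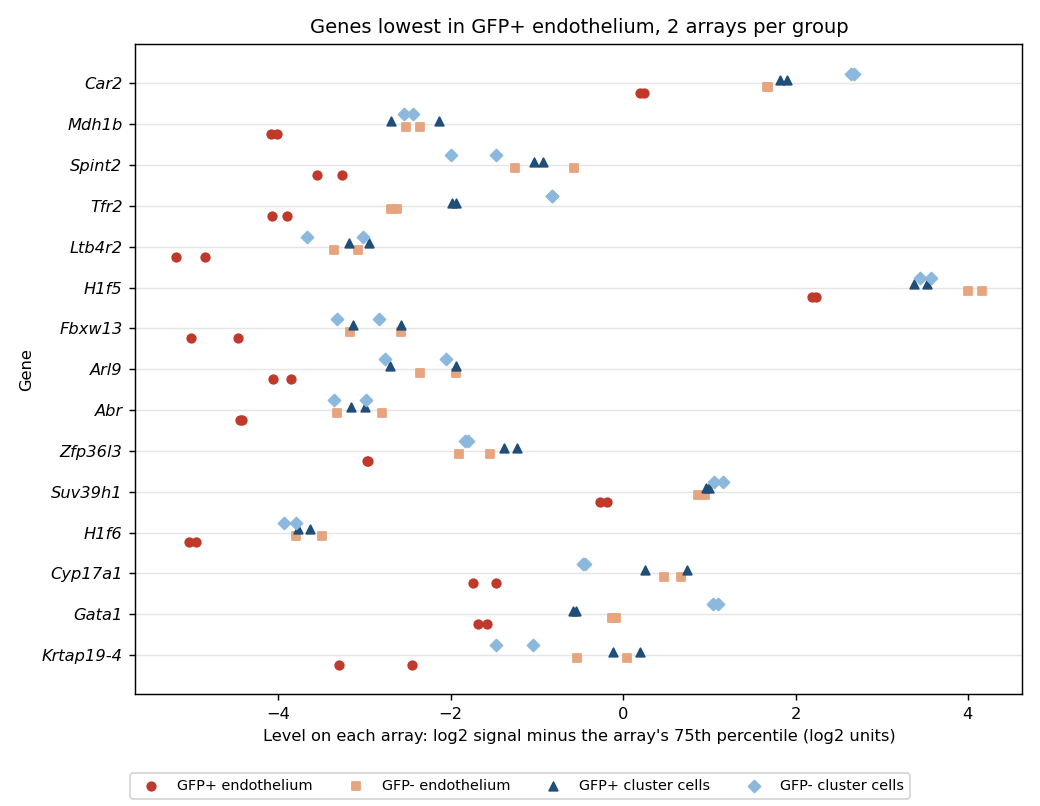
Level on each of the 8 arrays, as log2 signal minus the array's 75th percentile, for the 15 genes of the RefSeq gene table with the largest measured gap below every other array, which leaves out Rn18s; each point is 1 array. The GFP+ endothelium points lie to the left of all others, from a gap of 1.43 for Car2 to 0.98 for Krtap19-4.

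The 2 directions differed in the genes they held. The median level over the 8 arrays was -2.59 among the 68 genes far above and -4.99 among the 233 far below, beside -0.72 over all genes. A current gene symbol was held by 91.2% of the first, 49.4% of the second and 71.3% of all genes. Of 103 olfactory receptor genes tested, 55 lay below every other array, 9 of them far below, and 1 above. With genes split into 4 equal bins by level, the dimmest bin held 211 of the 233 genes far below, and 38.1% of its genes lay below every other array and 6.48% above. In the 3 brighter bins between 19% and 29.3% lay below. Most of the 233 were dim signals. Rn18s read 3.12 and 2.99 in GFP+ endothelium and between 5.16 and 7.06 on the other arrays. Its part in the low signals was not tested.

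**Figure D5:**
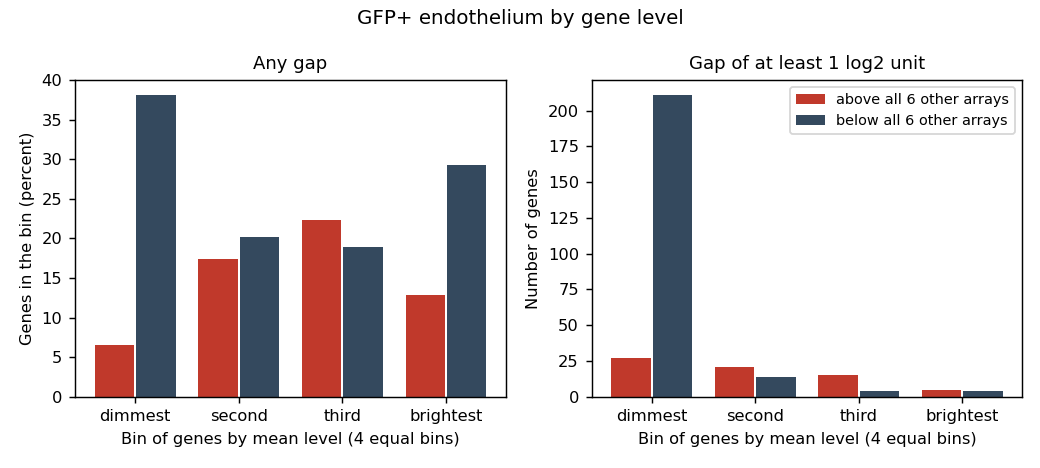
GFP+ endothelium in 4 equal bins of genes from dimmest to brightest (mean level over 8 arrays): left, percent of the bin's genes above (red) or below (dark blue) all 6 other arrays; right, number with a gap of at least 1 log2 unit. The dimmest bin holds 211 of the 233 genes far below and 27 of the 68 far above.

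Both arrays of a group lay on different slides, and each slide held all 4 groups, so genes picked on one slide could be read on the other. Of 4158 genes highest in GFP+ endothelium on the first slide, 3246 (78.1%) were highest on the second, where 21.5% of all genes were. Of 98 picked with a gap of at least 1 log2 unit, 93 held. Picked on the second slide, 121 of 205 such genes held on the first. Of 7722 genes lowest on the first slide, 6306 (81.7%) were lowest on the second, where 39.2% of all genes were. These are fractions of one RNA, and the shares speak for the arrays, not for another pool of embryos.

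A second probe of the same gene gives a reading that the choice did not use. Among genes above every other array with a further measured probe, 258 of 812 such probes (31.8%) were above too, beside 12.7% of all 4854 such probes. For genes below it was 580 of 1266 (45.8%), beside 29.6%. For genes with a gap of at least 1 log2 unit it was 11 of 13 probes above and 7 of 12 below. Probes of one gene can read different transcripts, so a second probe is no replicate.

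Markers of other cells that a vessel sort could hold were read for completeness. The counts are to be read beside the shares over all genes, 14.7% above every other array and 26.6% below. Of 25 genes of smooth muscle and mesenchyme, 3 lay above, led by the transcription factor gene Gata4 (gap 0.70), and 2 below, while 16 were called lower than in GFP- endothelium (33.4% of all genes) and 19 higher than in GFP+ cluster cells (24.3%). Their summed signal was 53.0 and 53.3 in GFP+ endothelium, 59.5 and 59.1 in GFP- endothelium, 41.8 and 42.4 in GFP+ cluster cells, and 50.3 and 50.7 in GFP- cluster cells. Of 18 megakaryocyte genes 1 lay above, Gp1ba, and 0 below. Called lower than in GFP- endothelium were 9 (33.4% of all genes) and higher 5 (18.2%). Called higher than in GFP- cluster cells were 10 (15.7% of all genes) and lower 1 (31.4%). The list's sum was 25.4 and 24.6 in GFP+ endothelium and 42.6 and 43.0 in GFP- endothelium. It was 25.2 and 24.3 in GFP+ cluster cells, and 20.6 and 20.2 in GFP- cluster cells. Liver and yolk sac genes had 2 of 19 above and 8 below, with Amn and Apob lowest, and their summed signal ran from 15.3 to 15.7 in GFP+ endothelium and from 15.1 to 20.9 elsewhere. Of 13 neural genes, 2 lay above, Stmn2 (gap 1.16) and Ncam1 (0.39), and 1 below. Among 11 genes of epithelium and mesothelium 2 lay above and 2 below.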

How the data were processed

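RNA of 4 sorted populations, in 2 amplified fractions each, was hybridised to 8 one-colour Agilent arrays. The deposited intensity values are background-subtracted Cy3 signals from Feature Extraction 10.10.1.1, per the file headers. The authors' deposited normalized table served as an alternative, with a normalization not stated in the sources used. Control spots and outlier-flagged spots were left out, spots of a probe were averaged, and log2 of the deposited intensity minus the array's 75th percentile (708 to 1477 units) was used. The brightest of a gene's probes stood for it, and a gene was tested where some group had it well above background on its 2 arrays (19501 genes). Of 39419 probes, 26049 were named through accessions, 3194 had a current symbol and 10176 kept the file's name. The share of probes well above background was 54.6% to 63.7% per array, and none was saturated. Precision is limited by the number of arrays.

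One limma model (limma 3.58.1, R 4.3.3) over 4 groups gave all contrasts, with Benjamini-Hochberg adjustment over all genes. Same-numbered arrays shared a slide, per the file headers, and their deviations correlated at 0.139 to 0.360, so the numbers pair the arrays. An array's position on its slide and its group cannot be told apart. Where a group was not well above background, a lower bound was set against the lowest signal well above background on each array, or the probe's own signal if higher.

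The genes and lists were chosen with earlier results of these data known. Named genes are the 15 with the largest gap each way and the 6 largest bounds each way. These have a symbol in the RefSeq gene table and passed against each other group. The markers, the sort genes and up to 8 genes outside the other arrays per list were also named. For those, passing against each other group was not required, and some did not pass. Tables and plots were made with Python 3.11.15, pandas 2.3.3 and matplotlib 3.10.9. Alternatives were quantile normalization, the authors' table, normexp (offset 50), other probe filters, the mean of a gene's probes, a moderated fit with trend, a 2-fold threshold, the slide as a block and leaving out each array. A few genes that these rules cover are not reported here.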

Additional observations from a re-analysis of the deposited data

How the results depend on the processing

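With the replicate block (slide) the comparison with the mean of the other groups gave 11544 calls, and the block moved no count of calls by over 1.5 times. Genes lower than each other group numbered 1607 with quantile normalization, 1602 in the authors' table and 1293 with normexp and 2 spots reset, an alternative chosen after seeing the data that gave 5967 calls against GFP- cluster cells. Plain normexp left 1649 genes above and 2471 below every other array, 144 calls against the mean of the others, 100 against GFP- endothelium, 137 and 136 against GFP+ and GFP- cluster cells, and 14 higher and 1 lower than each. Resetting those 2 spots, on 1 GFP- endothelium array, restored most calls. Without a filter on dim probes 7946 genes lay below and 972 were higher than each group. At 2-fold or more there were 1434, 1396, 1924 and 1575 calls in the same order of comparisons, with 96 higher and 498 lower than each. A gap of at least 1 left 68 above and 233 below. Genes lowest on slide 2 held on slide 1 in 82.6% of cases. Leaving out 1 array gave 2961 to 3614 genes above, 5263 to 6782 below, 6844 to 10295 calls against the mean of the others (fewest without GFP+ endothelium replicate 1), 7210 to 10071 against GFP- endothelium, 7477 to 9123 against GFP+ cluster cells and 5577 to 9017 against GFP- cluster cells (fewest without GFP- cluster cell replicate 2). It gave 1001 to 1351 higher than each (fewest without GFP+ endothelium replicate 2) and 1565 to 2171 lower than each (fewest without replicate 1); a lone array was assumed to vary like the other groups. Cdh5 turned to -0.022 within slide 1, Lgals3bp to 0.11 with plain normexp and Notch1 to 0.23 with the mean of its probes. The causes of the other shifts were not tested.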
